A study of Mus musculus with 21 samples.

Results

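The stress keratins are a small set of intermediate filament genes that keratinocytes switch on after wounding: Krt6a and Krt6b, which encode type II keratins, and Krt16 and Krt17, which encode type I keratins. A keratin filament is built from pairs of 1 type I and 1 type II chain, so genes of both types have to be expressed together. In unwounded skin, transcripts of this set are found mainly in hair follicles, nails and other thickened or rubbed epithelia, while the epidermis between follicles uses Krt5 and Krt14 in its basal layer and Krt1 and Krt10 above it. Wounding, psoriasis and other hyperproliferative states bring Krt6, Krt16 and Krt17 into the interfollicular epidermis. The 4 genes were taken by symbol out of 49315 genes in the count files. They had been picked because of their values in the very comparison described here, so their levels are given as a description and without a test.

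The study addressed AP-2α and AP-2β, transcription factors encoded by Tfap2a and Tfap2b, by RNA sequencing of mouse epidermis. The groups used here are K14CreTfap2afl/flTfap2bfl/fl mice at 6 months (DKO below, for double knockout, and double cKO in the plots, 3 libraries), strain-specific controls at 6 months, labelled wild type (3 libraries), and K14CreTfap2bfl/fl mice at 3 weeks (2 libraries). K14Cre expresses Cre recombinase from a promoter of the keratin gene Krt14, active in basal keratinocytes and in the hair follicle cells that arise from them. The labels do not say whether the controls carry floxed alleles or which strain they are.

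Of 21 files, 13 listed every gene at 0, among them all those of both kinds of control, of K14CreTfap2afl/fl and of K14CreTfap2afl/flTfap2bfl/fl mice at 3 weeks and replicate 3 of K14CreTfap2bfl/fl. The 8 libraries with counts held 11318181 to 17746284 counts each. Control replicates 1 and 2 stood apart in their background: they held 1.61 and 3.19 counts per exonic kb in odorant and vomeronasal receptor genes, against 0.0971 to 0.195 in the other 6 libraries. The whole-gene counts did not show loss of the targeted genes. Tfap2a was at 140.3 to 210.1 counts per 1000000 (CPM) in controls and 213 to 309 CPM in DKO libraries, and Tfap2b at 57.3 to 86.6 and 53.8 to 57.2 CPM. Neither passed an adjusted p of 0.05 in edgeR's quasi-likelihood test (0.118 and 0.111). DKO therefore stands for the label alone, and directions below are those of the libraries as labelled.

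Krt6a and Krt6b are neighbours on chromosome 15 and so alike that reads can be assigned to the wrong copy or lost. Their coding sequences were identical at 97.8% of 1659 aligned bases, with 37 differences. Of all 150-base windows of the Krt6b transcript, 18.8% also occurred in the Krt6a transcript, and 18.7% of those of Krt6a occurred in Krt6b or the keratin-like gene Gm5478. The 2 sequences below come from the reference and show where the coding sequences of the copies differ most. They are the stretch of 120 coding bases, 5′ to 3′, with the most differences, 17 of the 37, in capitals. Both run from base 751 to base 870 of the coding sequence, across an intron that is left out here. The Krt6a stretch lies within chr15:101692490-101692766 and that of Krt6b within chr15:101678309-101678585, both in exons on the minus strand (GRCm38), with sequences from GENCODE M21 transcripts.
Krt6a: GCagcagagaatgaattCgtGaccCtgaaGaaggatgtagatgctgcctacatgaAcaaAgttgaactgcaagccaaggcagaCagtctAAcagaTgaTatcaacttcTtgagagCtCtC
Krt6b: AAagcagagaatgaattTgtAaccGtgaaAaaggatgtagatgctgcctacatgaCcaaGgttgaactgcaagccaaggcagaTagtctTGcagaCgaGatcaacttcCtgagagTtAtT
A read that covers this stretch can be told apart, whereas one from the shared windows cannot by its own sequence, without its mate. The sum of both genes is therefore given beside each, though any reads discarded as multi-mapped would be missing from it too. Krt16 shared 18.4% of its windows with the gene Gm11597, which held 16 counts at most in any library, and Krt17 shared none. Gm44342 and Gm44383, annotated across Krt6a and Krt6b on the opposite strand, held no counts. Coding sequences of Krt16 and Krt17 were identical at 75.8% of aligned bases.

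Among the type II genes, Krt6b (ENSMUSG00000023041, chromosome 15, 101676034 to 101680289, minus strand) was almost silent in control epidermis and strongly expressed in DKO libraries. Control replicates 1, 2 and 3 held 34, 16 and 10 counts, or 2.82, 1.41 and 0.651 CPM. DKO libraries held 6143, 8598 and 11380 counts, or 445, 586 and 641 CPM. The lowest of these lay 158-fold above the highest control. From group means of 1.63 ± 1.10 and 557 ± 101 CPM (SD, n = 3 each), the ratio was 342, with the largest fitted log2 fold change of the 17755 genes in the fit (8.26, SE 0.45). The receptor-gene background over the exon length of Krt6b came to 3.58, 7.10 and 0.328 counts in control replicates 1, 2 and 3, below the counts seen but a large part of them in replicate 2. Against control replicate 3 alone, with its low background, the ratio was 856, and against replicates 1 and 2 it was 263. Without control replicate 1 the fitted log2 fold change was 8.89.

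Krt6a (ENSMUSG00000058354, chromosome 15, 101689932 to 101694307, minus strand), the more abundant Krt6 gene, held 55.6, 248 and 91.3 CPM in controls. It held 1867, 1460.2 and 1720.1 CPM in DKO libraries. The groups did not overlap, and the controls spread far more (4.47-fold from lowest to highest) than DKO libraries (1.28-fold). The ratio of means was 12.8, from 132 ± 103 to 1682 ± 206 CPM (SD, n = 3 each). Without control replicate 2, the highest control, the fitted log2 fold change went from 3.60 (SE 0.57) to 4.44. Summed over Krt6a and Krt6b, the controls held 58.5, 249.9 and 92.0 CPM and DKO libraries 2312, 2046 and 2361 CPM, a ratio of 16.8. This sum does not depend on how reads were split between the 2 copies, and its fitted log2 fold change was 3.99 (SE 0.56), or 4.82 without control replicate 2.

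Among the type I genes, Krt16 (ENSMUSG00000053797, chromosome 11, 100246091 to 100248902, minus strand), whose product pairs with keratin 6, held 19.6, 67.9 and 173 CPM in control replicates 1, 2 and 3. It held 1283, 781 and 1073 CPM in DKO libraries. Every one of these lay at least 4.51-fold above the highest control, and the ratio of means was 12.03 (86.9 ± 78.5 to 1046 ± 252 CPM, SD, n = 3 each). The fitted log2 fold change was 3.52 (SE 0.82), 4.58 without control replicate 3 and 2.54 without control replicates 1 and 2. The controls differed among themselves 8.84-fold in Krt16 and not in the order seen for Krt6a: replicate 2 was highest in Krt6a, replicate 3 in Krt16 and replicate 1 in Krt6b.

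Krt17 (ENSMUSG00000035557, chromosome 11, 100256217 to 100261029, minus strand), a keratin of hair follicles that is also induced by injury, differed far less between the groups. It held 374, 369.9 and 449 CPM in controls and 602, 474 and 762 CPM in DKO libraries. The groups came close to touching, with the lowest DKO library 1.05-fold above the highest control. The ratio of means was 1.54 (398 ± 44.7 to 613 ± 144 CPM, SD, n = 3 each), and the fitted log2 fold change was 0.55 (SE 0.18). In fitted log2 fold change Krt6b, Krt6a and Krt16 ranked 1, 22 and 25 of 17755 genes, and Krt17 ranked 2884. As background for these values, the groups did not overlap, with DKO libraries higher, in 22.5% of all genes in the fit (38.7% in either direction), and 14.9% of all genes passed the adjusted p threshold of 0.05 (edgeR) in either direction. Nothing is read from the 4 genes against these shares, because they were chosen on this contrast.

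**Figure D1:**
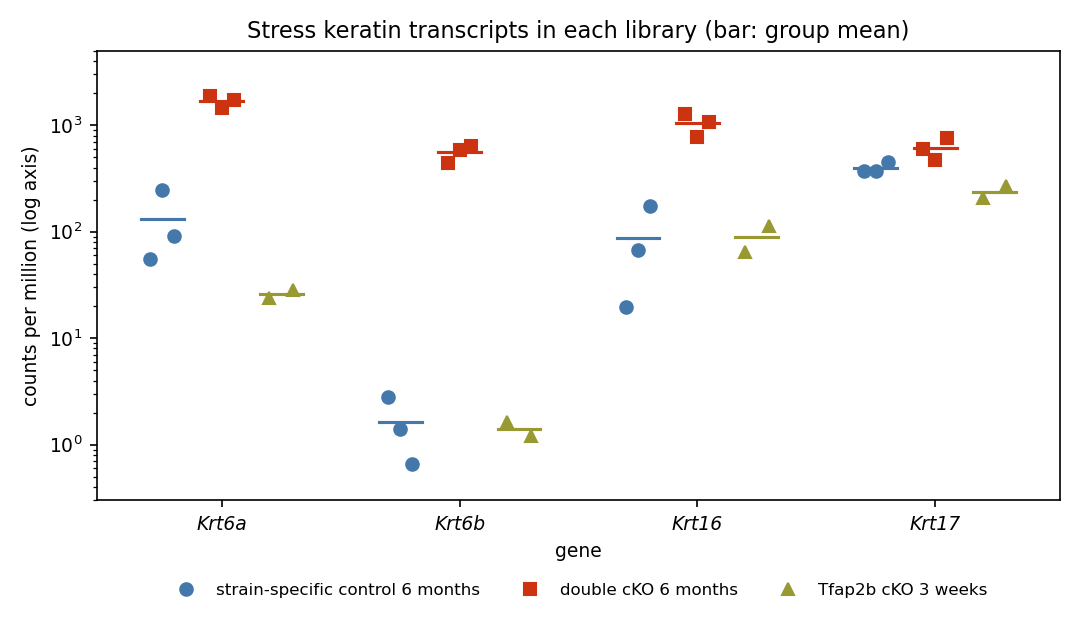
CPM of the 4 stress keratin genes in each of the 8 libraries with counts, on a log axis. Points are libraries, bars are group means and colours are groups. In Krt6a, Krt6b and Krt16 the 3 DKO libraries lie well above all others, whereas for Krt17 the lowest of them, at 474 CPM, is just above the highest control, at 449 CPM.

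At 3 weeks, the 2 libraries of the Tfap2b knockout had levels in the range of the adult controls or below it. Krt6a was at 24.1 and 28.3 CPM, Krt6b at 1.62 and 1.20 CPM (21 and 15 counts), Krt16 at 63.9 and 114 CPM and Krt17 at 207 and 266 CPM. For Krt6a and Krt17 both lay below every control at 6 months, and for Krt6b and Krt16 they lay within the range of those controls. Genotype and age differ together here and cannot be told apart, and the 3-week controls hold no counts.

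Levels of different genes were compared as CPM per kb of exon. In the controls Krt17 came first, at 257 ± 28.8 CPM per kb, and Krt6b last, at 0.732 ± 0.495 (SD, n = 3 each). Krt6a (58.4 ± 45.5) and Krt16 (55.5 ± 50.2) stood between them and did not differ beyond their spread. In DKO libraries the order was Krt6a (746 ± 91.3), Krt16 (668 ± 161), Krt17 (395 ± 93.2) and Krt6b (250.4 ± 45.5). Krt6a and Krt16 again lay within each other's spread, and Krt17 was above Krt6b in 3 of 3 libraries. Krt17, the leading stress keratin of the controls, thus came after Krt6a and Krt16 there. In the Tfap2b knockout at 3 weeks the order of means was Krt17, Krt16, Krt6a and Krt6b, at 153, 56.7, 11.6 and 0.633 CPM per kb.

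The balance within each library shifted too. Krt6b made up 4.89%, 0.573% and 0.717% of the summed Krt6a and Krt6b counts per kb in controls, and 19.5%, 28.9% and 27.4% in DKO libraries. Krt16 made up 4.93%, 15.4% and 27.6% of the summed Krt16 and Krt17 counts per kb in controls, and 67.8%, 62.0% and 58.3% in DKO libraries. In all 3 of these, the main type I stress keratin was Krt16 and not Krt17. The ratio of type II to type I transcripts in the set (Krt6a plus Krt6b over Krt16 plus Krt17, per kb) was 0.102, 0.393 and 0.102 in controls and 0.850, 1.13 and 0.892 in DKO libraries. By these counts per kb, the 2 types in the set were nearly equal in the latter, and type I was in excess in the former. This ratio depends on how reads shared between genes were counted, which is not known and touches Krt17 least. In the Tfap2b knockout at 3 weeks the ratio was 0.0653 and 0.0535.

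**Figure D2:**
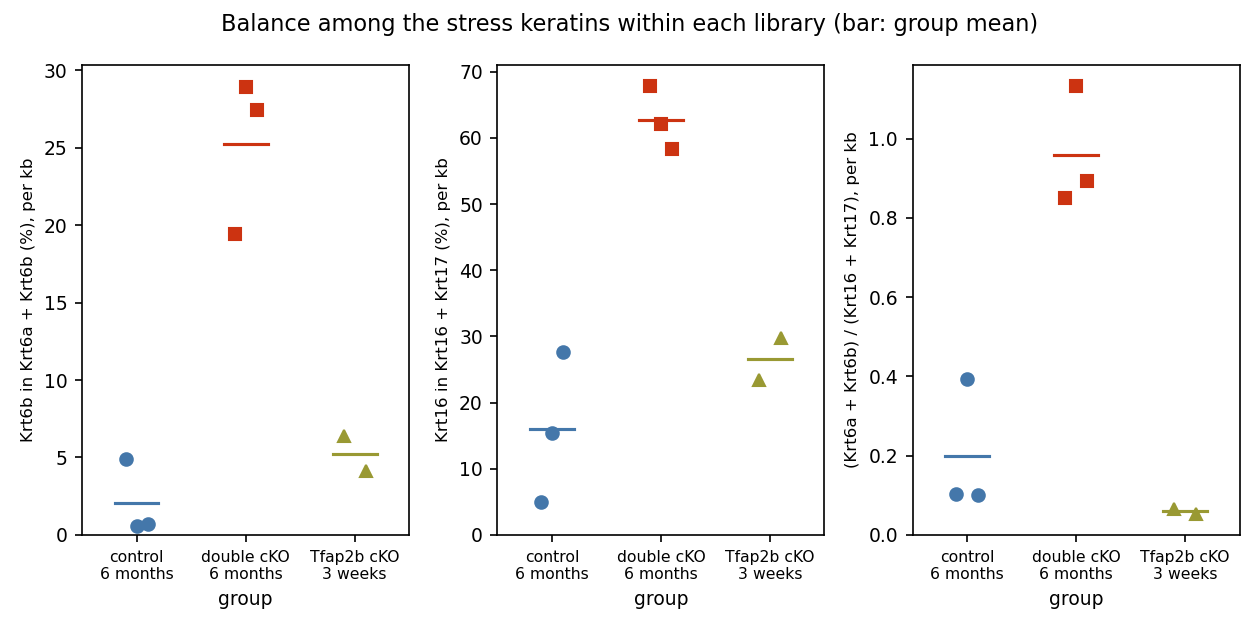
Composition of the stress keratin pool per library, from counts per kb of exon: the percentage of Krt6b among Krt6a and Krt6b (left), the percentage of Krt16 among Krt16 and Krt17 (middle) and the ratio of the type II to the type I genes (right). Points are libraries and bars group means. In each panel the 3 DKO libraries lie above the 3 controls, and the ratio on the right is 0.850 to 1.13 in them.

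All keratin genes together took 1.78%, 1.85% and 2.20% of the counts in controls and 2.60%, 3.12% and 2.83% in DKO libraries. As a share of all keratin counts, the 4 stress keratins made up 2.54%, 3.72% and 3.24% in controls against 16.2%, 10.6% and 14.8% in DKO libraries (means 3.17% ± 0.592 and 13.9% ± 2.92, SD, n = 3 each), and Krt6a alone reached 4.67% to 7.19%. On this scale Krt17 did not stand apart: it took 2.10%, 2.00% and 2.04% of keratin counts in controls and 2.32%, 1.52% and 2.70% in DKO libraries, so that the groups overlapped. Krt6a, Krt6b and Krt16 stayed apart between the groups on this scale, with ratios of 8.67, 221 and 8.90.

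**Figure D3:**
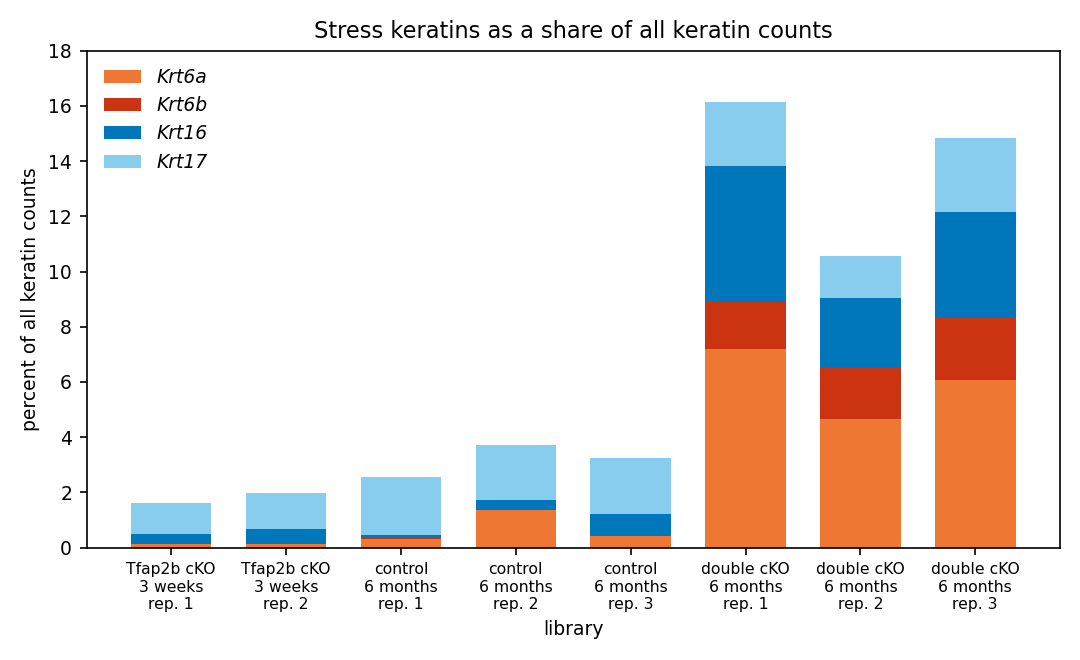
Stress keratin counts as a percentage of the counts of all type I and type II keratin genes, stacked by gene, for each library. The stack reaches 10.6% to 16.2% in DKO libraries and at most 3.72% in any other, while the Krt17 segment has a similar height in the adult groups.

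The other keratin genes, tested in the same fit, moved in both directions. Like every gene list here, theirs was chosen with earlier results of these data known, so its shares are no independent evidence. Of 24 other type II genes in the files 18 could be tested: 2 rose, 2 fell and 14 did not pass the threshold (11.1% higher and 11.1% lower, against 6.26% and 8.59% of all genes). Of 26 other type I genes 15 could be tested: 1 rose, 3 fell and 11 did not pass. The median log2 fold changes were -0.46 and -1.30, against -0.035 over all genes tested.

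The genes that rose were Krt5, Krt14 and Krt1, keratins of the interfollicular epidermis. Krt5, the basal type II keratin and the next keratin gene to Krt6a, rose from 2434, 2515 and 2897 CPM to 4248, 5247 and 5893 CPM (log2 fold change 0.90, SE 0.16, edgeR adjusted p 0.00860). Krt14, its basal partner and the nearest keratin gene to Krt16 on its other side, rose from 1018, 1171 and 1502 CPM to 3728, 3903 and 5079 CPM (1.71, SE 0.19, edgeR adjusted p 0.000969). Krt1, the type II keratin of the layers above, rose by 1.05 on the log2 scale (SE 0.19, edgeR adjusted p 0.00810). Its partner Krt10 did not pass the threshold, at 0.037 (SE 0.18, edgeR adjusted p 0.904). Neither did the abundant Krt77, at -0.23 (edgeR adjusted p 0.465), nor Krt78 at -0.033 and Krt2 at -0.16 (edgeR adjusted p 0.910 and 0.897). With control replicates 1 and 2 both left out, Krt14 still passed, while Krt5 and Krt1 did not.

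The genes that fell were Krt80 (log2 fold change -1.52, edgeR adjusted p 0.00149), Krt7 (-1.48, edgeR adjusted p 0.0457), Krt26 (-2.40, edgeR adjusted p 0.0267), Krt32 (-2.12, edgeR adjusted p 0.0255) and Krt23 (-1.30, edgeR adjusted p 0.00939). Krt26 is a keratin of the inner root sheath and Krt32 one of the hair shaft. Krt80 and Krt23 passed whichever single library was left out. Krt7, Krt26 and Krt32 lost the threshold without any 1 library except control replicate 3, at log2 fold changes of -1.53 to -1.18, -2.55 to -2.14 and -2.35 to -1.71. Krt7 also lost it with total counts as the only scaling, without a filter on low counts and by DESeq2.

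The keratin neighbours on the other sides did not pass or could not be tested. Krt75, the next keratin on the other side of Krt6b and a keratin of the companion layer of the hair follicle, was at 46.5, 84.4 and 50.7 CPM in controls and 2.61, 2.45 and 17.3 CPM in DKO libraries, with an edgeR adjusted p of 0.0671. Krt42, next to Krt17, held 10, 22 and 2 counts in controls and 3, 0 and 6 in DKO libraries, too few to be tested. Gm5478 and Gm5414, keratin-like genes between Krt75 and Krt6b named after their values were seen, held 28 counts at most in any library.

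**Figure D4:**
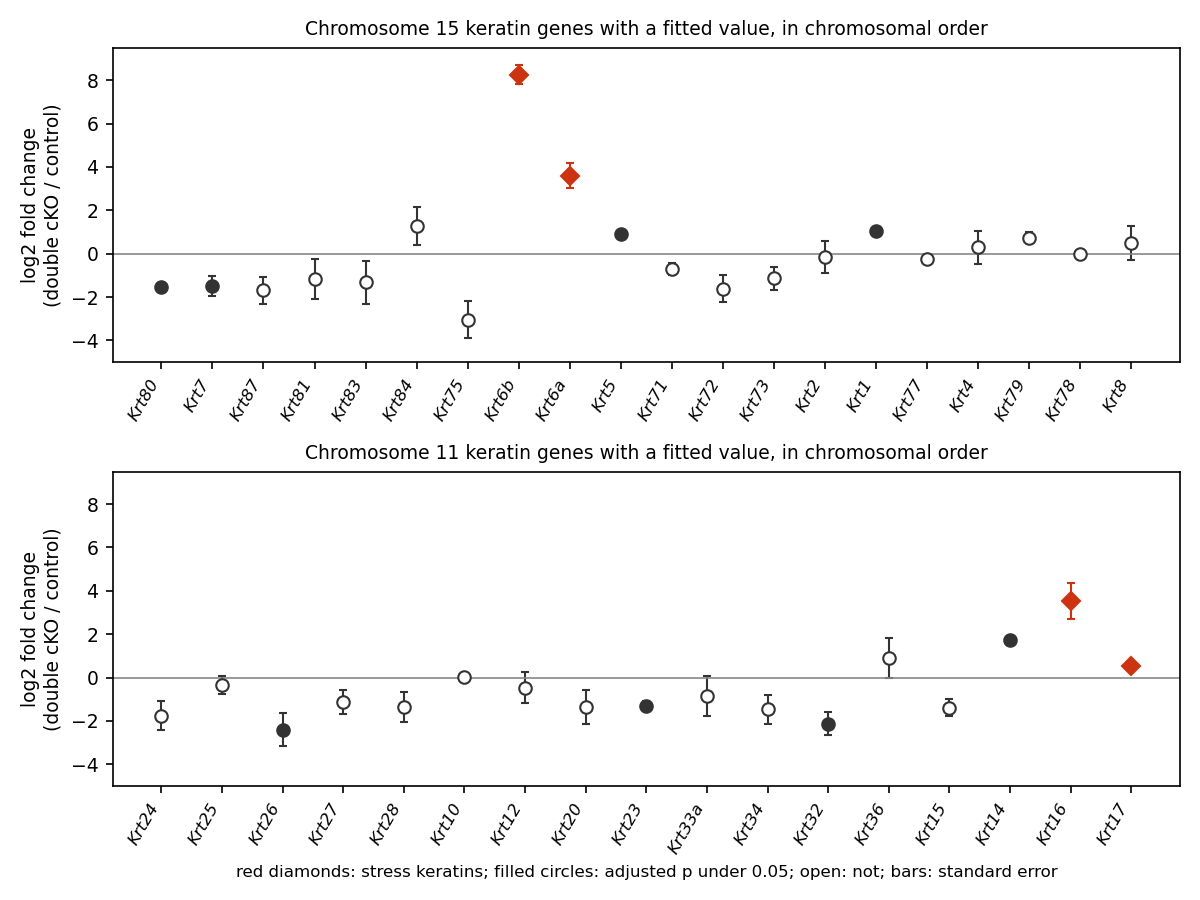
Fitted log2 fold change (DKO libraries over controls) of keratin genes in their order along chromosome 15 (top) and chromosome 11 (bottom), with standard errors. Red diamonds are the stress keratins, filled circles other genes past an adjusted p of 0.05 and open circles those not past it. Krt6b at 8.26 and Krt6a at 3.60 stand between Krt75 at -3.04 and Krt5 at 0.90.

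Stress keratins are also made in the hair follicle, so follicle markers are given beside them. The summed level of 10 companion layer and outer root sheath markers was 1100 to 1747 CPM in controls and 455 to 865 CPM in DKO libraries. The gap in this sum rested on Krt15, its most abundant marker: without it the sums were 372, 583 and 433 CPM in controls and 221, 193 and 459 CPM in DKO libraries, which overlapped. Taken singly, Krt15, Krt75, Lgr5 and Cd34 were lower in every DKO library than in every control, as were 16.3% of all genes. The groups overlapped for the other markers, of which only Barx2 had a positive log2 fold change (0.24). Of the 10 markers none passed as higher and 1 as lower, the stem cell marker Lgr5, near the 8.59% of all genes that were lower, and none was at 0. The summed level of 15 hair shaft and inner root sheath markers was 47.1 to 58.5 CPM in controls and 25.3 to 42.3 CPM in DKO libraries, with none of 11 tested genes past the threshold by edgeR. Without Tchh, the most abundant of them, the groups stayed apart, at 35.9, 31.0 and 33.1 CPM against 13.8, 21.7 and 17.8 CPM. Krt26 and Krt32, which fell, are not in that list. Krt31 and Krt33b were at 0 in some libraries. The 6 interfollicular keratinocyte markers summed to 10594 to 12994 CPM in controls and 16404 to 20291 CPM in DKO libraries, with Krt5, Krt14 and Krt1 higher (6.26% of all genes were higher). Not all of them followed: the groups overlapped for Krt10 and Ivl, and Lor, encoding loricrin, was at 742, 319 and 307 CPM in controls and 101, 275 and 219 CPM in DKO libraries (edgeR adjusted p 0.131). The 8 dermal markers summed to 59.0 to 166 and 16.0 to 27.4 CPM, with Col1a1, Col1a2 and Col3a1 lower. Col1a1 and Col1a2 lost the threshold without any 1 DKO library (log2 fold changes of -2.41 to -1.86 and -2.65 to -2.12), and Col3a1 passed whichever single library was left out. Upper follicle markers summed to 691 to 886 and 470.3 to 802 CPM, which overlapped, with Plet1 lower. Without Krt79, the most abundant of them, the groups did not overlap. These sums were 597, 710 and 558 CPM in controls and 374, 304 and 495 CPM in DKO libraries. Immune markers summed to 328 to 519 and 238 to 465 CPM, with none of 7 past the threshold by edgeR. In bulk RNA, fewer cells of a type and less RNA per cell cannot be told apart, and the part of these markers in the stress keratin levels was not tested.

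Among genes for signals known to induce stress keratins, more fell than rose. This list and those of the next paragraphs were also chosen with earlier results of these data known, so their shares are no independent evidence. Of 22 genes for inducing cytokines and EGF-family ligands, 13 could be tested, of which 1 rose and 4 fell (7.69% and 30.8%, against 6.26% and 8.59% of all genes), with a median log2 fold change of -0.85. The EGF receptor ligand genes Epgn, Btc and Areg fell. Epgn, encoding epigen, went from 149.8, 112 and 120.3 CPM to 40.3, 15.7 and 34.8 CPM (log2 fold change -2.15, SE 0.31, edgeR adjusted p 0.00483). Btc (betacellulin) fell by 2.80 on the log2 scale (edgeR adjusted p 0.0177), and without DKO replicate 1 it was at -2.62 and lost the threshold. Areg (amphiregulin) was at -1.27 (edgeR adjusted p 0.0168) and did not pass without control replicate 2 or replicates 1 or 2 of the other group, at -1.25 to -0.996. Tnf (-1.06, edgeR adjusted p 0.0397) also fell, with groups that overlapped, and passed on leaving out control replicate 1 but not any other single library (-1.22 to -0.81). Il36g, an epithelial cytokine of the interleukin 1 family, was the 1 that rose, from 57.7, 36.6 and 48.0 CPM to 98.9, 80.5 and 179 CPM (1.26, edgeR adjusted p 0.0297). It lost the threshold without control replicates 1 or 2 or DKO replicate 1 (1.11 to 1.43). Il1a (-0.35) and Il1b (-0.45) did not pass, with edgeR adjusted p of 0.590 and 0.617, and Il17a, Il22 and Ifng were among the 9 genes with too few counts to test.

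The receptors for these ligands included 3 that rose among 18 tested (16.7%, against 6.26% of all genes), and none that fell (edgeR). Il1rl2, the receptor for interleukin 36, went from 234, 194 and 238 CPM to 673, 584 and 523 CPM (log2 fold change 1.34, SE 0.14, edgeR adjusted p 0.000875). Osmr, the oncostatin M receptor, rose by 1.04 (SE 0.16, edgeR adjusted p 0.00492) and Il20ra, a receptor chain for interleukin 20 cytokines, by 1.33 (SE 0.22, edgeR adjusted p 0.00572). All 3 passed whichever single library was left out, and Il1rl2 also without control replicates 1 and 2 together. Egfr, the receptor for the ligands encoded by Epgn, Btc and Areg, did not pass (-0.20, edgeR adjusted p 0.308). Tnfrsf1a, a receptor for the product of Tnf, did not pass either (-0.27, edgeR adjusted p 0.176).

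Of 22 transcription factors known to act on stress keratin promoters, all could be tested, and 2 rose, 7 fell and 13 did not pass (9.09% and 31.8%), with a median log2 fold change of -0.26. Members of the AP-1 family, which bind wound-responsive promoters, made up 6 of the 7 that fell. Fosb went from 1372, 1398 and 1389 CPM to 579.8, 409.96 and 529 CPM (log2 fold change -1.53, SE 0.15, edgeR adjusted p 0.000614). Jun went from 714, 648 and 495 CPM to 230.2, 226 and 278 CPM (-1.42, SE 0.17, edgeR adjusted p 0.00147). Junb was at -1.03 (edgeR adjusted p 0.00589), and all of Fosb, Jun and Junb passed without any 1 library.

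The calls of the other AP-1 genes were lost when single libraries were left out. Fosl1 (-2.37, edgeR adjusted p 0.0391) lost the threshold without any 1 library except control replicate 3 (-2.54 to -1.77). Jund (-0.70, edgeR adjusted p 0.0493) lost it without control replicate 2 or any 1 DKO library (-0.74 to -0.42), and Fosl2 (-0.75, edgeR adjusted p 0.0151) without replicates 1 or 2 of that group (-0.73 to -0.66). Fos itself did not pass (-0.19, edgeR adjusted p 0.385). Rara, a retinoic acid receptor, was the other gene that fell (-0.96, edgeR adjusted p 0.00545). Tfap2c, the AP-2γ gene, rose by 0.50 (edgeR adjusted p 0.0384), which was lost without control replicate 2 or any 1 DKO library (0.47 to 0.58). Stat3 (0.14, edgeR adjusted p 0.546) and Nfe2l2, the gene of NRF2 (-0.74, edgeR adjusted p 0.260), did not pass.

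None of the 8 testable genes for proteins that bind stress keratins passed by edgeR, with 2 at an unadjusted p under 0.05. DESeq2, which tested 9 genes of this list, called 2 higher and 1 lower. Plec, encoding the linker plectin, was at a log2 fold change of 0.55 (edgeR adjusted p 0.0798) and Dsp, encoding desmoplakin, at -0.086 (edgeR adjusted p 0.705). The median over this list was 0.048.

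Other genes of activated keratinocytes were likewise chosen with their earlier values known, so their direction is no independent evidence. Of 19 tested, 5 rose and none fell (26.3%, against 6.26% of all genes rising), with a median log2 fold change of 1.36. Sprr1b, a cornified envelope precursor, went from 10.4, 2.83 and 8.01 CPM to 189, 179 and 153 CPM (log2 fold change 4.51, SE 0.40, edgeR adjusted p 0.000772). Tnc, the matrix protein tenascin C, went from 12.1, 15.6 and 19.99 CPM to 61.6, 47.5 and 84.9 CPM (1.94, SE 0.25, edgeR adjusted p 0.00204). Cd44 (0.91, edgeR adjusted p 0.0239) and Plau, the urokinase gene (0.96, edgeR adjusted p 0.0468), also rose. Plau lost the threshold without any 1 library except control replicate 3 (0.79 to 1.10), and Cd44 without control replicates 1 or 2 or replicates 1 or 3 of the other group (0.81 to 0.96). S100a8 and S100a9, which accompany Krt6 and Krt16 in psoriasis, did not pass (edgeR adjusted p 0.119 and 0.0797). Their log2 fold changes were nevertheless large, at 6.14 (SE 2.07) and 5.30 (SE 1.64). Both were higher in every DKO library than in every control, as were 22.5% of all genes in the fit. S100a8 was at 24.0, 4.23 and 172 CPM in DKO libraries, a spread not seen in Krt6a.

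**Figure D5:**
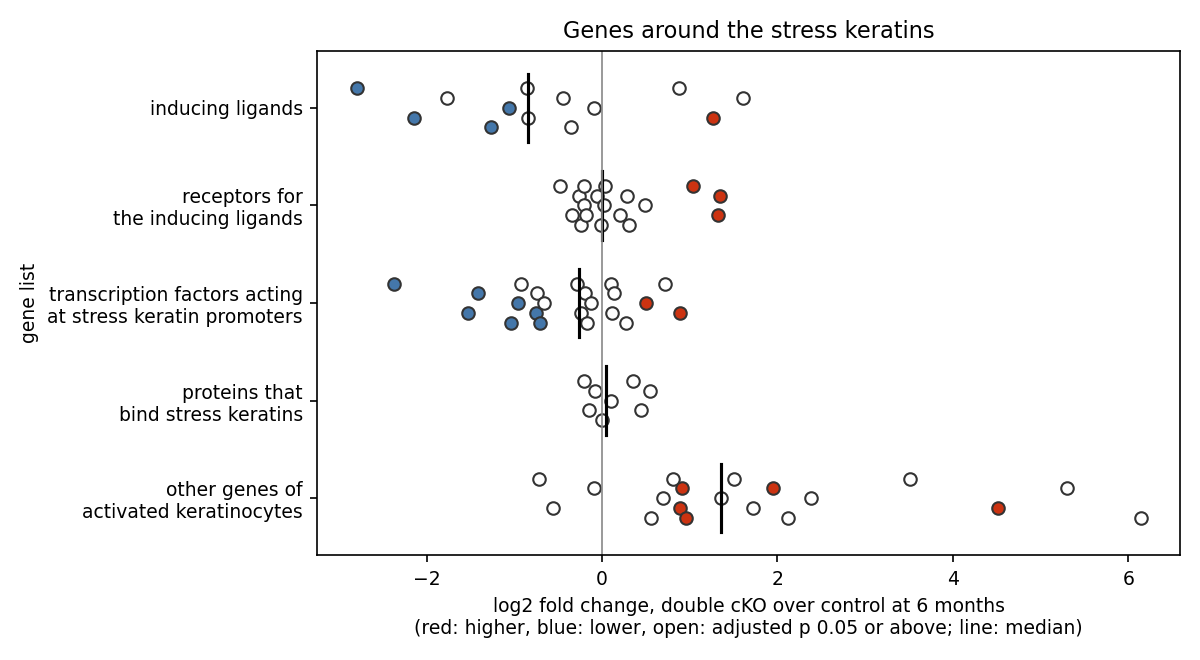
Fitted log2 fold change of the tested genes in 5 lists around the stress keratins. Each circle is a gene, red if higher and blue if lower at an adjusted p under 0.05 and open otherwise, and the line is the median. Ligands and transcription factors have more blue than red circles, and the activated keratinocyte list has 5 red and no blue ones.

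Across all 8 libraries, the genes whose log2(CPM + 1) followed each member most closely differed from member to member. The points share libraries, group and depth, so the Pearson coefficients only describe likeness. By Spearman's rank correlation 0 or 1 of the 5 genes most like each member stayed among its first 5. With 0.1 added to CPM in place of 1, 2 of the 5 stayed for Krt6b, 4 for Krt6a and all 5 for Krt16 and for Krt17. For Krt6b the 5 genes most like it were Mmp13, a collagenase gene (r = 0.994), Imp3 (0.992), Serpinb6c (0.988), Teddm3 (0.984) and Cxcr2, a chemokine receptor gene (0.984). Mmp13 was at 0.130 to 0.884 CPM in controls and the Tfap2b knockout, and at 13.3 to 16.3 CPM in DKO libraries. For Krt6a they were Zfp180 (0.992), Aknad1 (0.990), S100a14 (0.987), Ceacam12 (0.979) and Gtf2a2 (0.978). For Krt16 they were Smc6 (0.998), Dcaf17 (0.994), Zfp322a (0.989), Ccdc77 (0.988) and Mrps9 (0.987), and for Krt17 they included Pole2 (0.979), 2700097O09Rik (0.976), Egln3 (0.972) and Cd44 (0.970). The members were not each other's closest genes: among 13610 genes Krt6b ranked 193 for Krt6a, at r = 0.913, and Krt16 and Krt17 were the least alike pair, at r = 0.735.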

How the data were processed

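Total RNA of epidermis was depleted of ribosomal RNA, per the labels, and sequenced with paired reads of 150 bases. The authors deposited raw counts per gene for each library; Trimmomatic 0.36, STAR 2.5.2b, featureCounts and Subread 1.5.2 are named in the submitters' processing notes, with GRCm38 and GRCh38 as builds. The use of strand and the handling of multi-mapped reads are not given in the sources used here. Of 49315 gene identifiers 99.3% were in GENCODE M21 (GRCm38), which gave the symbols. Il36a, Il36b and Il36g carry older names there, and Krt85 and Eppk1 were not analysed here. The promoters of the 4 genes were not used here.

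The 3 controls and the 3 libraries labelled as double knockout (DKO) at 6 months were compared with edgeR 4.0.16 in R 4.3.3 (filterByExpr, TMM, robust glmQLFit, prior count 2, glmQLFTest, Benjamini-Hochberg over 17755 genes, threshold 0.05). CPM are counts per 1000000 counts of the library, without TMM factors. Nothing in the labels says whether replicates are separate animals, so p-values measure only the spread between these samples. The fit was tested on simulated data. The 4 genes and all gene lists were chosen with earlier results of these data known. Named were all 4 genes, from each list up to 3 genes past the threshold with the largest fitted log2 fold change in size, fixed keratins (Krt5, Krt14, Krt1, Krt10, Krt75, Krt42), the targeted genes and the 5 protein-coding genes most like each member by Pearson correlation; further list genes were named after their values were seen. Some genes that this rule names or the lists hold are not reported here. Alternatives were DESeq2 1.42.0, other scalings and filters, all libraries in one fit, the replicate number as a block and each library left out. Added after seeing the data were control replicates 1 and 2 left out together, subtraction of the receptor-gene background and marker sums without the most abundant marker.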

Additional observations from a re-analysis of the deposited data

How the results depend on the processing

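Every member kept a positive fitted log2 fold change in all 15 alternatives. With each library left out in turn it ranged from 3.24 to 4.44 for Krt6a, 7.94 to 8.89 for Krt6b, 3.05 to 4.58 for Krt16, 0.39 to 0.74 for Krt17 and 3.64 to 4.82 for the Krt6a and Krt6b sum. Without control replicates 1 and 2 together Krt6b was at 9.43. As a share of keratin counts the log2 ratio of group means went from 8.42 to 7.79 for Krt6b and from 0.62 to 0.089 for Krt17. The number of genes past the threshold, 2637, was 4809 without a filter on low counts, 4192 by DESeq2, 668 (without DKO replicate 1) to 7544 (without control replicate 3) with 1 library left out, and 437 without control replicates 1 and 2. The median log2 fold change over the genes of each fit was -0.035 in the main fit, -0.56 without a filter and -1.25 by DESeq2. These medians cover different genes, because the last 2 fits kept every gene with a count in any of the 6 libraries, also those with very few. With the replicate number as a block 1729 genes passed. Same-numbered libraries did not deviate together (correlations 0.0066, -0.169 and -0.068), and no library correlated best with its own number, so the numbers were not taken as pairs.

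With 1 library left out the genes past the threshold numbered 3 to 7 for other type II keratins, 2 to 7 for other type I keratins, 1 to 7 for ligands, 5 to 11 for transcription factors, 0 to 4 for binding proteins and 3 to 7 for activated keratinocyte genes. Without control replicates 1 and 2 these were 1, 1, 0, 2, 0 and 1. Binding proteins counted 1 with total counts, 3 without a filter and 3 by DESeq2, and activated keratinocyte genes 10 and 8 under the last pair of settings. Of the single libraries left out, control replicate 3 gave the highest count for each list. The cause of these changes was not tested. Subtracting the background moved no member past its spread and no count by over 1.5 times, but ended the calls of Krt7, Krt26, Tfap2c and Plau. The control level of Krt6b rests on 10 to 34 counts per library, which limits its ratio.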

Other observations

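The library of the Tfap2b knockout with replicate number 1 held 2704 CPM summed over 8 dermal markers, against 18.3 CPM in replicate 2 and 16.0 to 166 CPM in the adult libraries. The 4 stress keratins summed to 297 CPM in replicate 1 and 409 CPM in replicate 2, and Krt16 was at 63.9 and 114 CPM.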
